A study of Danio rerio with 21 samples.

Results

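The Angiopoietin-TIE2 pair consists here of 2 genes, the ligand gene angpt1 (NCBI gene 114407, also ang1) and the receptor gene tek (NCBI gene 30747, also tie2). They were found by their symbols among the 3064 genes listed in any of the 3 deposited comparison tables. angpt1 was listed in 2 tables and tek in 1, and neither was among the 176 genes listed for the double-negative cells.

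Angiopoietin-1 is a secreted protein that binds and activates TIE2, a receptor tyrosine kinase of the endothelial cell surface. In mammals the ligand is made mainly by cells that surround vessels, and also by haematopoietic cells, while TIE2 marks endothelium and some haematopoietic stem cells. Active TIE2 signals through phosphatidylinositol 3-kinase (PI3K) and AKT, which restrain FOXO transcription factors and keep endothelium quiescent and tightly joined.

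The cells came from zebrafish embryos, aged 28 to 30 hours after fertilisation (hpf), that carried both TgBAC(runx1P2:Citrine) and Tg(kdrl:mCherry), so every group shares these 2 reporters. Gates on the 2 colours gave MO-DP-R1hi (double-positive, high Citrine, from embryos injected with a runx1 morpholino), Wt-DP-R1hi (the same gate from non-injected embryos, called haemogenic endothelium or HE), Wt-DP-R1lo (double-positive, low Citrine, called aortic roof endothelium or ARE), and MO-DN and Wt-DN (negative for both colours). The study counts sprouting inter-somitic vessels as part of ARE. Each group had 3 libraries of at least 3000 cells from embryos pooled over several clutches. Of 21 samples in 7 groups, 15 samples in 5 groups had columns in the tables, and Wt-SP-kdrl and Wt-DP-R1med were not analysed here.

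Several features limit these groups as models. The gates were cut from reporter intensity in whole dissociated embryos. Citrine protein is stable and, as the study describes, carries over into aortic roof cells and primitive erythrocytes. The morpholino was a splice-blocking one, its comparator was no injection, and its target gene was not analysed here. The study used the double-negative cells to remove off-target genes. It also measured angpt1 in runx1 mutants by quantitative PCR and in situ hybridisation, and reported that its expression in HE depended on runx1. Those measurements were not analysed here. Values are CPM, reads of a gene scaled to a common library size. Taking the smallest step between the values of a library as 1 read, effective library sizes were 9717338 to 22592458 reads. These sizes depend on the comparison and are not plain read totals. Wt-DP-R1hi replicate 1 had 16184468 against Wt-DP-R1lo and 15009203 against MO-DP-R1hi.

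Groups were compared with limma on log2(CPM + 1) over all genes of a table, two-sided, with Benjamini-Hochberg adjustment as if 30000 genes had been tested. This number was set above the genes listed because the authors deposited only genes that they had called different on the same libraries, so that a pass is not independent evidence of a difference. A gene is said to have passed, to have risen or to have fallen, where its adjusted p was under 0.05. Between HE and ARE 80.1% of the 2732 listed genes passed, 31.4% as higher and 48.6% as lower in HE.

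Most endothelial markers listed as different between the gates were lower in HE. The summed level of the 9 listed of 14 endothelial markers was 106 to 244 CPM in HE, against 1190 to 2320 CPM in ARE. Of these 9 genes, 8 fell in HE and 1, vwf, rose, against 48.6% and 31.4% of all listed genes. The endothelial transcription factor gene fli1a, of the same 14, was not listed between the gates and stood at 550 ± 15 CPM (SD, n = 3) in the HE libraries in the morphant table, which was normalised separately. The reporter's own gene kdrl, a VEGF receptor, stood at 11.2, 7.69 and 26.1 CPM in HE, against 78.7, 102 and 194 CPM in ARE. The mRNA of this receptor thus separated the 2 double-positive gates although cells of both were gated on its promoter's reporter.

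HE carried more ligand mRNA and far less receptor mRNA than ARE. angpt1 was 2.09-fold higher in HE by the ratio of mean CPM, and tek was 30.0-fold lower. Both genes separated all 3 HE libraries from all 3 ARE libraries, in opposite directions. The same holds for 98.1% of the genes listed, 39.7% higher and 58.4% lower in HE, so it does not single the pair out. In sorted bulk samples, fewer cells that express a gene and less mRNA per cell cannot be told apart.

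angpt1 stood at 33.0, 36.0 and 35.5 CPM in the HE libraries, against 19.6, 12.9 and 17.3 CPM in the ARE libraries. The HE libraries lay close together, and the highest ARE library stayed well below the lowest HE library. The group means were 34.8 ± 1.6 CPM in HE and 16.6 ± 3.40 CPM in ARE (SD, n = 3 each). At 1 read per step these levels rest on 534 to 686 reads in HE and 215 to 281 reads in ARE. Exact 95% Poisson intervals, which cover counting error only, did not overlap between the gates.

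The log2 difference of angpt1 was 1.04 (SE 0.21, 95% interval 0.57 to 1.51, limma adjusted p = 0.0110), and angpt1 thus rose in HE. Its size was ordinary for this table, with rank 463 of 1099 genes listed as higher in HE, whose median was 0.97. Without HE replicate 2 the log2 difference was 1.02 and its adjusted p was 0.0629. Over all 13 alternatives the limma adjusted p of angpt1 ran between 3.71e-05 and 0.0629, and this was the one alternative in which angpt1 did not pass. After rescaling by median ratios over the listed genes, which moved HE up relative to ARE for every gene, the difference was 1.86.

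tek stood at 6.36, 2.33 and 3.06 CPM in the HE libraries, against 69.4, 85.8 and 197 CPM in the ARE libraries. The receptor was low in every HE library, and ARE replicate 3 stood above the other ARE libraries. The group means were 3.92 ± 2.15 CPM in HE and 117 ± 69.6 CPM in ARE (SD, n = 3 each). These rest on 40 to 103 reads in HE and 954 to 3198 reads in ARE.

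The log2 difference of tek was -4.52 (SE 0.40, 95% interval -5.42 to -3.63, limma adjusted p = 6.04e-05). It ranked 34 by size among 1633 genes listed as lower in HE, whose median was -1.70. Without ARE replicate 3 the difference was -4.08, and it passed in all 13 alternatives. That library also had the highest endothelial marker sum, 2320 CPM against 1281 and 1190 CPM in ARE replicates 1 and 2, and the part of this in the level of tek was not tested.

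**Figure D1:**
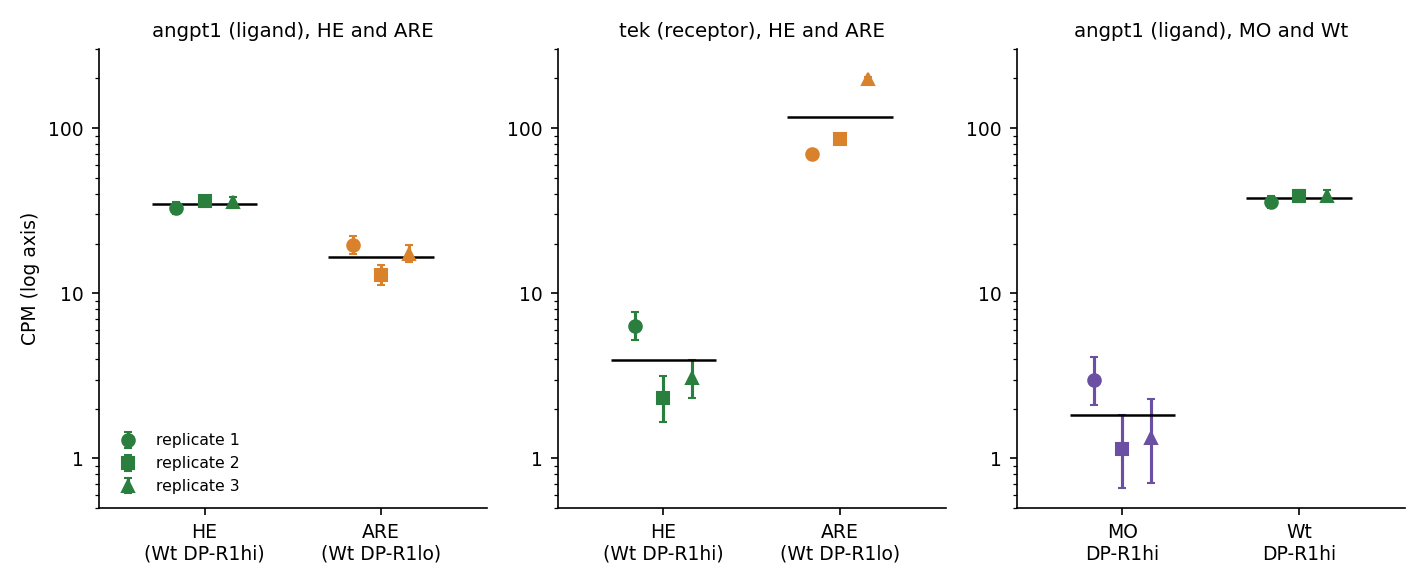
CPM (log axis) of angpt1 and tek in each library, HE left of ARE, and of angpt1 in MO-DP-R1hi left of Wt-DP-R1hi; points are libraries with exact 95% Poisson intervals from the reads and lines are group means (n = 3). tek is 2.33 to 6.36 CPM in HE and 69.4 to 197 CPM in ARE, while angpt1 is 12.9 to 36.0 CPM in these 6 libraries and 1.14 to 3.0 CPM in the MO libraries.

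The balance of receptor to ligand mRNA was followed within each library as the log2 ratio of tek to angpt1, each as CPM + 1. No transcript lengths were used, so the ratio has no meaning as an absolute level, and only its difference between gates is read. It was -2.21, -3.47 and -3.17 in the HE libraries, against 1.77, 2.64 and 3.43 in the ARE libraries. Every HE library lay below every ARE library.

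The mean ratio differed by -5.56 on the log2 scale between HE and ARE (exact permutation test, two-sided, p = 0.1, adjusted p = 0.2 over 6 ratios). With 3 against 3 libraries 0.1 is the smallest p this test can give. The ratio's difference is the log2 difference of tek less that of angpt1. Both genes were listed because they differed between these same libraries, and they separated the gates in opposite directions. The separation of the ratio and its p follow from this, and are no evidence beyond the levels of the members. Over the pseudocounts tried and with each library left out, the difference ran between -5.99 and -4.56.

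Other endothelial genes gave a scale for the receptor's difference, and their 5 ratios were chosen after the values had been seen. The log2 ratio of tek to kdrl was -0.73, -1.38 and -2.74 in HE, against -0.18, -0.25 and 0.02 in ARE. tek and kdrl thus kept nearly 1 ratio among the ARE libraries, replicate 3 included, and their ratio was more spread and lower in HE. The difference was -1.48 (exact permutation p = 0.1, the smallest possible, adjusted p = 0.2 over 6 ratios).

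The ratio of tek to flt1, another VEGF receptor gene, differed by -1.18 and likewise did not overlap between the gates (exact permutation p = 0.1, adjusted p = 0.2). Against kdr, also a VEGF receptor gene, the ratio differed by -1.52, and its values overlapped (exact permutation p = 0.2, adjusted p = 0.3). Against cdh5, which encodes VE-cadherin, it differed by -0.87 with overlapping values (exact permutation p = 0.3, adjusted p = 0.36). Against flt4, the VEGF receptor gene of veins and lymphatics, it differed by 0.20, with HE values of 0.48, -0.63 and -1.36 lying on both sides of the ARE values of -0.99, -0.62 and -0.47 (exact permutation p = 0.9, adjusted p = 0.9). None of the 6 ratios could pass at this number of libraries.

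**Figure D2:**
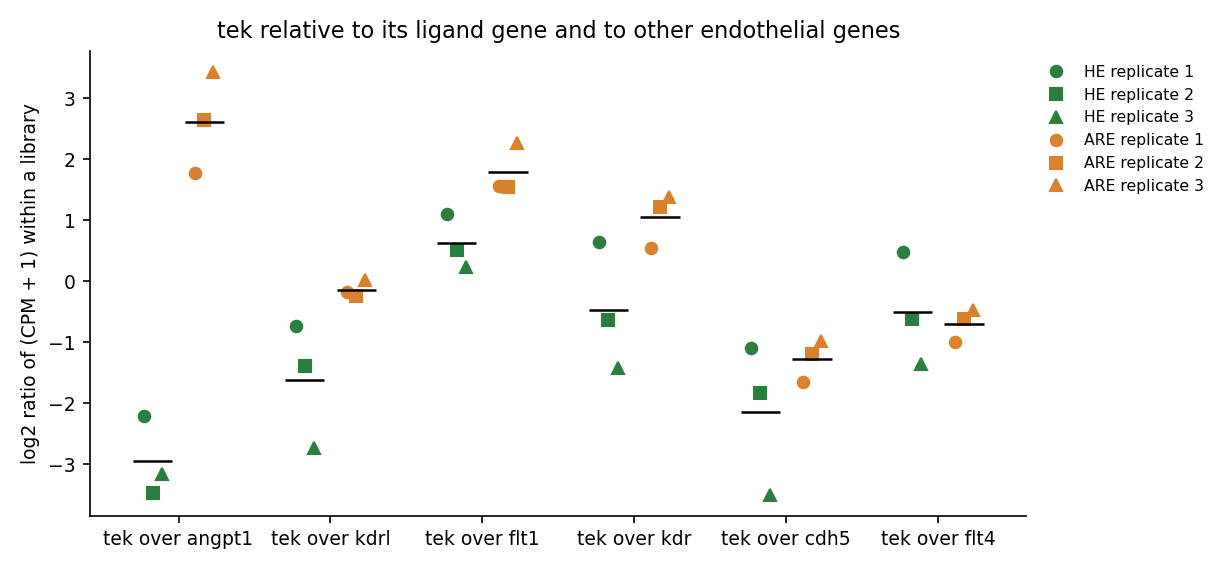
Log2 ratio of tek to angpt1, kdrl, flt1, kdr, cdh5 and flt4, each as CPM + 1, in every library; points are libraries, HE left of ARE, and lines are group means (n = 3). The ratio to angpt1 differs most between the gates (-3.47 to -2.21 in HE, 1.77 to 3.43 in ARE), and the ratio to flt4 overlaps. Of the genes to which tek is compared, only angpt1 is higher in HE, so its ratio had to differ most.

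The drop of tek in HE was one among receptor kinases of endothelium. Of 12 such genes in a list 8 were listed, tek included, and all 8 fell in HE, as did 48.6% of all listed genes. Their median log2 difference was -3.19 against -1.0 over all listed genes. By size on the log2(CPM + 1) scale the order was flt4 (-4.72), tek (-4.52), ephb4a (-4.09), flt1 (-3.35), kdrl (-3.04), kdr (-3.0), ephb4b (-2.88) and fgfr1a (-1.69). By the ratio of mean CPM, flt4 was 30.6-fold, tek 30.0-fold and ephb4a 29.5-fold lower in HE, so these were nearly equal. Beyond the within-library ratios of tek above, differences between neighbours in this order were not tested. flt4 stood at 4.26, 4.14 and 9.43 CPM in HE, against 139, 133 and 274 CPM in ARE. ephb4a, the venous receptor of ephrin-B2, stood at 0.93, 1.98 and 1.09 CPM in HE, against 31.0, 32.2 and 54.6 CPM in ARE. ARE replicate 3 was highest in both genes, as it was in tek.

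Among the other ligands and receptor partners few genes were listed. angpt1 was the single listed gene of 4 angiopoietin genes, and the second TIE receptor gene tie1 was not listed, which does not show that they were equal. itga5, the fibronectin receptor subunit alpha 5 that can also bind angiopoietins in mammals, was with tek 1 of 2 listed genes of 8 receptors and partners. It stood at 12.5, 5.60 and 18.6 CPM in HE, against 77.1, 69.5 and 112 CPM in ARE. All HE libraries were below the ARE libraries, as in 58.4% of all listed genes, with a log2 difference of -2.82 (limma adjusted p = 5.34e-04).

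The angiopoietin-like genes encode secreted relatives of the ligands that do not bind TIE2. Of 10 such genes 2 were listed, and both fell in HE, as did 48.6% of all listed genes. angptl7 stood at 0.31, 0.29 and 1.09 CPM in HE, against 29.7, 39.3 and 49.2 CPM in ARE (log2 difference -4.70, limma adjusted p = 1.36e-05). angptl4, an inhibitor of lipoprotein lipase, differed by -1.90. Both thus ran opposite to angpt1.

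Of 31 genes downstream of TIE2 11 were listed, of which 4 rose in HE, 6 fell and 1 did not pass, shares near the 31.4% and 48.6% of all listed genes. Their median was -1.13, against -1.0 over all listed genes. Those that rose encode PI3K subunits and AKT kinases, and those that fell were the FOXO gene foxo3b, the adaptor gene grb2a, the flow-responsive factor genes klf2a and klf2b, and the tight-junction genes cldn5a and cldn5b. These genes also serve many other receptors.

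pik3r1, a regulatory PI3K subunit gene, stood at 179, 192 and 182 CPM in HE, against 90.7, 87.8 and 94.0 CPM in ARE. pik3cd, the catalytic PI3K subunit gene of blood cells, stood at 87.4, 86.6 and 83.0 CPM in HE, against 37.2, 31.8 and 24.6 CPM in ARE. In both genes the HE libraries lay tightly together. They also lay above every ARE library, as in 39.7% of all listed genes. The log2 differences were 1.01 for pik3r1 and 1.45 for pik3cd (limma adjusted p = 3.75e-04 and 4.97e-04), and both passed in all 13 alternatives.

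The AKT genes were less firm. akt1 rose by 1.11 and akt3a by 1.4 on the log2 scale (limma adjusted p = 0.0464 and 0.0288). akt1 lost its call in 7 of 13 alternatives, among them without each library other than ARE replicate 3, with differences of 0.97 to 1.32 over the left-out libraries. akt3a lost its call in 6 of 12, among them without each library other than HE replicate 1, with differences of 1.2 to 1.6. akt2 stood at a log2 difference of 0.60 and did not pass (limma adjusted p = 0.0869, 1.0e-04 to 0.466 over its alternatives). It passed in 3 of 13 alternatives, which were the rescaling, the table's rows as the number of tests and the replicate block (0.00747).

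Among the genes that fell, klf2a stood at 2.22, 3.32 and 7.15 CPM in HE, against 26.5, 46.5 and 67.5 CPM in ARE. cldn5b stood at 11.5, 10.8 and 19.2 CPM in HE, against 147, 102 and 221 CPM in ARE. Neither gene overlapped between the gates, and neither did 98.1% of all listed genes. The log2 differences of klf2a and cldn5b were -3.21 and -3.38. The smaller differences of klf2b (-1.56), foxo3b (-1.13), grb2a (-1.65) and cldn5a (-1.71) lost their calls after the rescaling, as did fgfr1a. All of these but klf2b also lost their calls with some of the single libraries left out.

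**Figure D3:**
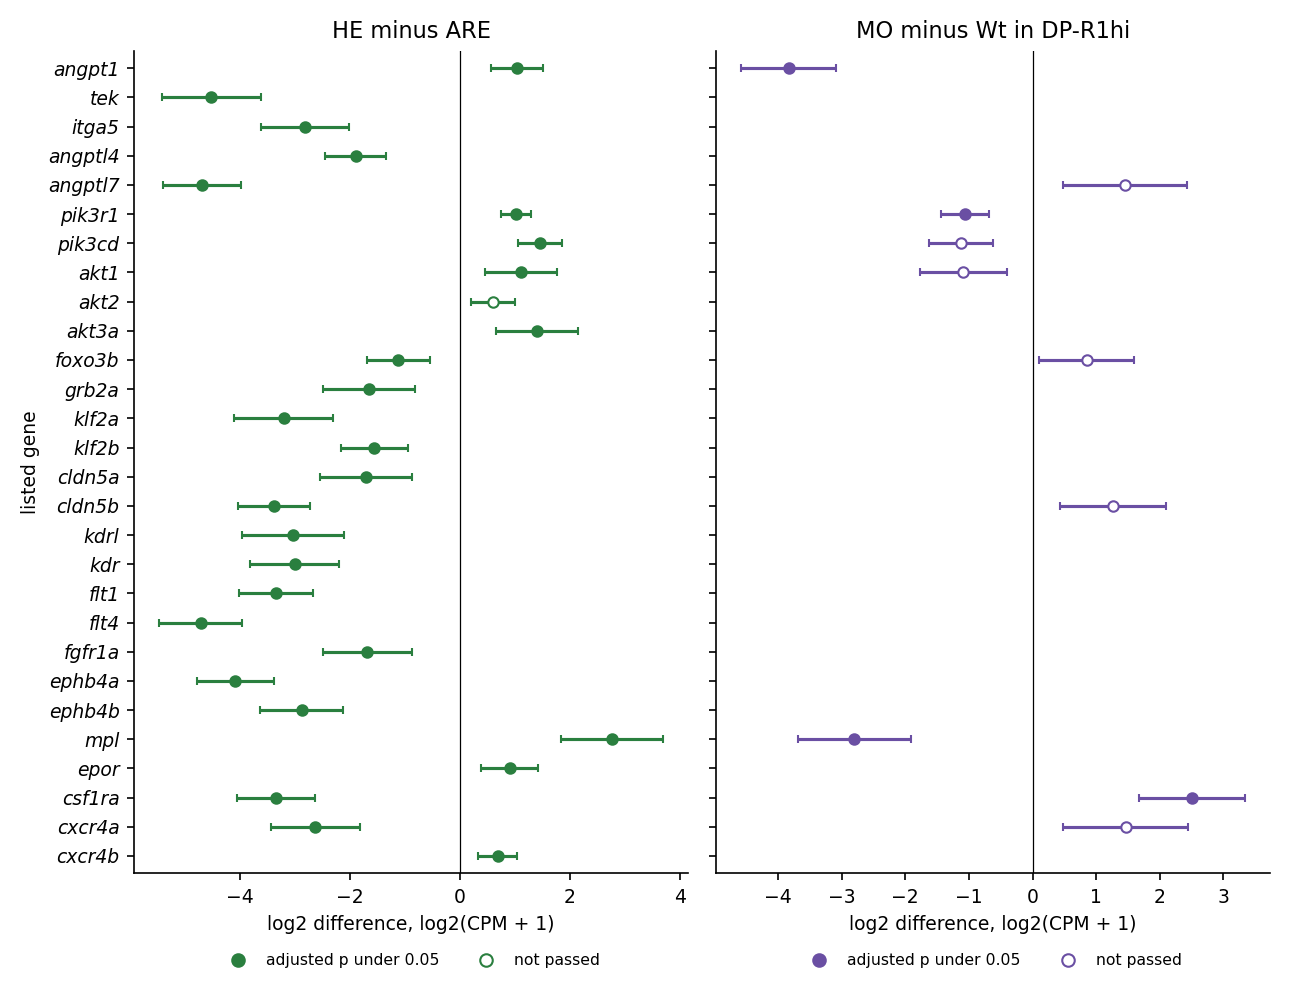
Log2 differences on the log2(CPM + 1) scale for the listed genes of the ligand, receptor, signalling, receptor kinase and blood receptor lists, HE minus ARE (left) and MO minus Wt in DP-R1hi (right); points are limma estimates, bars 95% intervals, filled points passed, and a gene with no point was not listed in that table. angpt1 is 1.04 on the left and -3.84 on the right, and tek is -4.52 on the left.

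Receptors of blood cells moved in both directions. Of 12 genes 5 were listed, of which 3 rose in HE and 2 fell, against 31.4% and 48.6% of all listed genes. Their median was 0.68 against -1.0 over all listed genes. mpl, the thrombopoietin receptor gene, stood at 8.71, 24.5 and 12.3 CPM in HE, against 2.25, 1.08 and 0.56 CPM in ARE (log2 difference 2.76, limma adjusted p = 0.00170). The erythropoietin receptor gene epor (0.90) and the chemokine receptor gene cxcr4b (0.68) rose less, and lost their calls in 6 and 4 of 13 alternatives. epor lost it without each library other than HE replicate 1 (0.76 to 1.06 over the left-out libraries), and cxcr4b without HE replicate 1 and ARE replicates 2 and 3 (0.56 to 0.83). The macrophage receptor gene csf1ra (-3.35) and cxcr4a (-2.63) fell.

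Markers of other cells moved between the gates together with both members. The 6 listed of 14 mural and fibroblast markers summed to 13.5 to 17.9 CPM in HE, against 618 to 831 CPM in ARE. Most of the ARE sum came from the collagen genes col1a2 and col1a1a, with means of 450 and 170 CPM. The ARE means of notch3 and rgs5b were 13.3 and 10.3 CPM. The 5 listed of 10 macrophage markers summed to 57.4 to 88.3 CPM in HE, against 885 to 1337 CPM in ARE. The leukocyte genes mpx and coro1a of the same 10 were not listed between the gates. In the morphant table they averaged 4305 and 2683 CPM in the same HE libraries. The 8 listed of 12 epidermis markers summed to 120 to 242 CPM in HE, against 1489 to 3426 CPM in ARE. The 2 listed of 11 erythroid markers ran the other way, with 1400 to 1537 CPM in HE and 238 to 330 CPM in ARE. They were blf and gata1a, and no globin gene of the marker list was listed between the gates. Most of the HE sum was blf, with means of 1206 CPM in HE and 130 CPM in ARE. Of the listed markers, 5 of 6 mural and fibroblast, 5 of 5 macrophage and 6 of 8 epidermis markers fell, against 48.6% of all listed genes. Both erythroid markers rose, against 31.4%. All these sums cover only genes listed as different, so they are not levels of a cell type.

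The 8 listed of 12 neural markers and the 2 listed of 10 muscle markers were also lower in HE, at 49.5 to 83.3 and 1.42 to 1.76 CPM, against 246 to 405 and 4.58 to 25.2 CPM in ARE. Of these, 6 neural markers and 1 muscle marker fell, against 48.6% of all listed genes, and the others did not pass. No listed marker was at 0 in every library of a gate. The part of these cells in the levels of angpt1 and tek was not tested.

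The morphants lost most of the ligand's mRNA from the high-Citrine gate. angpt1 was 20.7-fold lower in MO-DP-R1hi than in Wt-DP-R1hi by the ratio of mean CPM. It had the largest log2 fall of the 255 genes listed as lower, whose median was -1.1, and ranked second with a pseudocount of 5 and without MO replicate 3. The receptor tek was not among the 676 genes listed, so its level in morphants is not given here, and in the Wt cells of this gate it was at 2.33 to 6.36 CPM.

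angpt1 stood at 3.0, 1.14 and 1.34 CPM in the MO libraries, against 35.6, 38.7 and 39.0 CPM in the Wt libraries. The groups were far apart, and the Wt libraries varied little. The means were 1.82 ± 1.02 CPM in MO and 37.8 ± 1.89 CPM in Wt (SD, n = 3 each). The MO values rest on 37, 17 and 13 reads, against 534, 617 and 686 reads in the Wt libraries.

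These few reads set the precision of the morphant level. The exact 95% Poisson interval of MO replicate 2 was 0.66 to 1.82 CPM, that of MO replicate 3 was 0.71 to 2.29 CPM, and that of MO replicate 1 was 2.11 to 4.13 CPM. MO replicate 1 therefore differed from MO replicate 2 by more than its counting error, and no MO library was at 0.

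The log2 difference of angpt1 was -3.84 (SE 0.34, 95% interval -4.58 to -3.09, limma adjusted p = 0.00120). Of the genes listed here 23.1% passed, 16.4% as higher and 6.66% as lower in MO. The groups did not overlap in 93.2%, with 36.1% lower in MO. With the replicate number as a block, 261 genes passed instead of 156, and angpt1 was among them. angpt1 passed in all 13 alternatives, with differences between -4.47 and -2.66. The smallest came with a pseudocount of 5, which compresses low levels.

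The next largest falls were in gfi1ab (-2.88), a transcriptional repressor gene of blood precursors, named after its value was seen, and in mpl (-2.80). mpl stood at 1.21, 1.34 and 1.34 CPM in MO, against 9.39, 26.4 and 13.5 CPM in Wt (limma adjusted p = 0.0153). It lost its call without MO replicate 2 and without Wt replicate 2, with adjusted p between 3.46e-04 and 0.0731 over its alternatives. Ligand and thrombopoietin receptor thus both stood low in the morphants and high in the Wt libraries.

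The Wt-DP-R1hi libraries were the same in both tables, so the difference from ARE and the difference from MO share their HE libraries and are not independent. The tables were scaled separately, and these libraries read 1.08, 1.08 and 1.1 times higher in the morphant table. Side by side, with no test, angpt1 was 1.14 to 3.0 CPM in MO and 12.9 to 19.6 CPM in ARE.

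Of the 31 TIE2 signalling genes 5 were listed in the morphant table, of which 1 fell and 4 did not pass. Of all listed genes 6.66% fell. The median of the 5 was -1.06 against 1.02 over all listed genes. pik3r1 stood at 106, 91.7 and 89.3 CPM in MO, against 193, 206 and 200 CPM in Wt, and fell by 1.06 on the log2 scale (limma adjusted p = 0.0246, 5.53e-04 to 0.163 over its alternatives). Its groups were well apart, but it lost its call in 6 of 13 alternatives, among them without MO replicates 2 and 3 and without each Wt library, with differences of -1.13 to -1.01 over the left-out libraries. pik3cd stood at 37.4, 56.9 and 35.3 CPM in MO, against 94.3, 93.3 and 91.1 CPM in Wt. Its difference of -1.12 did not pass (limma adjusted p = 0.0818, 0.00184 to 0.441 over its alternatives). pik3cd passed in 4 of 13 alternatives, among them the replicate block (limma adjusted p = 0.0476).

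The other 3 listed signalling genes did not pass. akt1 had a log2 difference of -1.09, foxo3b of 0.85 and cldn5b of 1.26, and foxo3b overlapped between the groups. Over the alternatives akt1 passed in 2 of 13, and foxo3b and cldn5b in 1 of 13 each. angptl7 was at 4.78, 4.62 and 1.44 CPM in MO, against 0.33, 0.31 and 1.19 CPM in Wt, and did not pass either. Of the 12 blood receptor genes 3 were listed, of which mpl fell, csf1ra rose by 2.5 on the log2 scale, with its call lost in 5 of 13 alternatives, and cxcr4a did not pass. Of all listed genes 16.4% rose and 6.66% fell. None of the 12 endothelial receptor kinases was listed.

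Markers of other cells also differed between the morphant and Wt gates. The 5 listed of 11 erythroid markers summed to 79091 to 115130 CPM in MO, against 24847 to 32492 CPM in Wt. All 5 rose, as did 16.4% of all listed genes. Of the 7 listed of 10 macrophage markers 5 rose, among them mpeg1.1 (log2 difference 2.58) and mfap4 (3.38). mpx, better known as a neutrophil gene, fell (-1.42), and coro1a, a gene of leukocytes in general, did not pass (-0.84). The sum of the 7, most of it mpx and coro1a, was 3346 to 4992 CPM in MO against 6033 to 8024 CPM in Wt, and so does not follow the 5 that rose. The 3 listed of 14 endothelial markers summed to 358 to 413 CPM in MO, against 550 to 595 CPM in Wt. Most of this sum was fli1a, with means of 332 CPM in MO and 550 CPM in Wt, while erg and esama had log2 differences of 1.41 and 1.28, and none of the 3 passed.

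The 5 listed of 12 epidermis markers summed to 3076, 1176 and 386 CPM in MO replicates 1, 2 and 3, against 125 to 252 CPM in Wt. None of the 5 passed, and krt4 and agr1 overlapped between the groups. MO replicate 1 had the highest epidermis sum and the highest angpt1 level, and without it the log2 difference of angpt1 was -4.11. Of 14 mural and fibroblast markers 2 were listed, the collagen genes col1a1a and col1a2. They summed to 27.5 to 44.3 CPM in MO, against 4.88 to 13.4 CPM in Wt. col1a2 rose, as did 16.4% of all listed genes, while col1a1a overlapped between the groups and did not pass. No neural or muscle marker was listed. The part of these cells in the level of angpt1 was not tested.

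In the double-negative cells, where neither member was listed, 2 signalling genes were. foxo3b stood at 102, 105 and 90.9 CPM in MO-DN, against 26.4, 35.4 and 33.3 CPM in Wt-DN, and rose by 1.63 on the log2 scale (limma adjusted p = 0.0189, 1.11e-04 to 0.953 over its alternatives) in a table where 12.5% of genes passed, 11.4% as higher in MO-DN. It lost its call in 6 of 13 alternatives, among them without replicates 1 and 2 of either group, with differences of 1.5 to 1.71 over the left-out libraries. cldn5b had a difference of -1.19 and did not pass.

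The profiles most like those of the members were found by the root mean square difference of log2(CPM + 1) values centred within a table, as a description over few libraries. For tek, over 6 libraries and 2526 genes, the nearest were nr2f1a (0.25), ogn (0.41), tmem88a (0.41), mafba (0.43) and fzd7a (0.43), against a median of 1.85 over all genes compared. nr2f1a, which encodes an orphan nuclear receptor, averaged 1.07 ± 0.33 CPM in HE and 42.9 ± 22.7 CPM in ARE (SD, n = 3 each). Like tek, it was highest in ARE replicate 3.

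For angpt1, over 12 columns from 9 libraries and 357 genes, the nearest were mrpl28 (0.69), bcl6a (0.79), prkcbb (0.82), mpl (0.86) and agap2 (0.86), against a median of 2.13. angpt1 combined a modest difference between HE and ARE with a large one between MO and Wt. mrpl28, a mitochondrial ribosomal protein gene, differed by 0.68 between HE and ARE and by -2.17 between MO and Wt, where angpt1 differed by 1.04 and -3.84. mpl, with 2.76 and -2.80, had the larger difference between HE and ARE and the smaller one between MO and Wt.

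**Figure D4:**
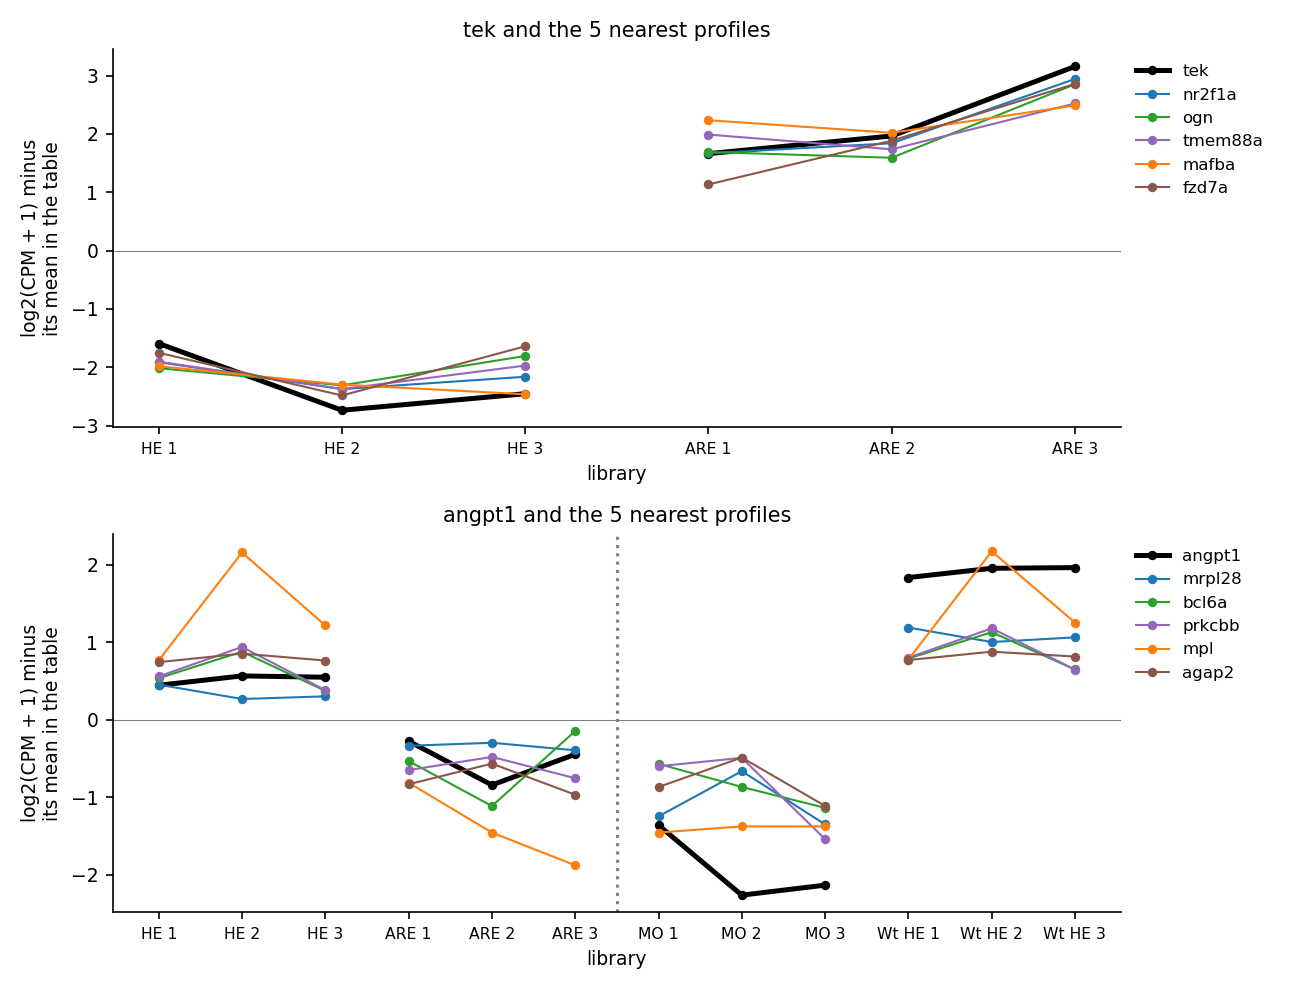
Log2(CPM + 1) of tek (top, 6 libraries) and angpt1 (bottom, 12 columns from 9 libraries) and of the 5 genes nearest to each, minus the gene's mean in its table; lines join the libraries of 1 group, and the dotted line separates the tables. The neighbours of tek lie within 0.25 to 0.43 of it by root mean square, and those of angpt1 within 0.69 to 0.86, with angpt1 below all 5 in MO replicates 2 and 3.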

How the data were processed

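Messenger RNA was sequenced from sorted cells (2.2 ng of RNA per sample, integrity number above 8). After trimming (Trimmomatic 0.32), the authors mapped reads to the Zv10 genome using STAR, counted per gene using featureCounts and compared groups with a generalised linear model in edgeR. The authors deposited CPM values per library, normalised within each comparison, for genes under a false discovery rate of 0.05 only. Their deposited log2 fold change, p-value and statistic (score) columns were not used. Since genes were selected on the same libraries, a pass here is not independent evidence.

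CPM values were whole multiples of 1 step per library (100% of values, tolerance 1e-06), from which read numbers were inferred. They and their Poisson intervals are estimates that rest on this step. A separate check for whole reads accepted only some of the columns, so no count test was run. limma 3.58.1 in R 4.3.3 was fitted to log2(CPM + 1) per table with a variance trend, with no filter on low values, and was tested on simulated data. Fold changes on this scale understate those of low genes. Ratios were tested in Python 3.11.15 with scipy 1.17.1.

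Members and lists were chosen with earlier results of these data known. Named were the members, the listed genes of the pathway lists, and the 5 genes with a symbol nearest to each member (provisional clone names left out). Further marker genes were summed. Replicates came from separate pools per the methods, but the labels do not say so, and p-values then measure only the spread between these samples. Injected and non-injected embryos came from split clutches, and same-numbered libraries deviated together in the morphant DP-R1hi table (r = 0.13, 0.31 and 0.12), so that the block was read there. It was not read for HE and ARE (0.09, 0.18 and 0.27) or DN (0.22, 0.18 and -0.06), as each r had to exceed 0.1. This limit does not separate the tables well. The unmatched MO replicate 1 and Wt replicate 3 in DP-R1hi also had 0.12, while unmatched pairs of HE and ARE had -0.21 to 0.06. The main tests of all 3 tables thus ignore any pairing of same-numbered libraries. Both members also passed between HE and ARE with the block. The alternatives were pseudocounts of 0.1 and 5, a mean of at least 5 CPM, rescaling by median ratios, the table's rows as the number of tests, no trend, the replicate block, and each library left out. The gene targeted by the morpholino is not reported here.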

Additional observations from a re-analysis of the deposited data

How the results depend on the processing

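No difference changed sign. angpt1 between HE and ARE ran between 0.88 and 1.16 with each library left out and lost its call without HE replicate 2; tek and the morphant angpt1 kept their calls in all 13 alternatives each. The number of genes passing between MO and Wt in DP-R1hi, 156, was 260 after rescaling, 661 with the table's rows as the number of tests, 74 without the trend and 261 with the replicate block, and 39 to 118 with a library left out, more than 1.5 times lower without any single library except MO replicate 1. In DN the 22 became 13 after rescaling, 176 with the table's rows and 74 with the replicate block, and 4 to 22 with a library left out, lowest without Wt-DN replicate 1 (4) and 2 (9). Rescaling also turned the split of calls, with 1099 higher and 726 lower between HE and ARE instead of 858 and 1329, 44 and 216 between MO and Wt in DP-R1hi instead of 111 and 45, and 5 and 8 in DN instead of 20 and 2. The log2 size factors divided out differed by -0.86 (HE minus ARE), 0.80 (MO minus Wt in DP-R1hi) and 0.91 (MO minus Wt in DN), so that HE moved up relative to ARE and MO down relative to Wt. This rescaling is computed on genes selected as different, so it is no check of the normalisation. Where the pairing was read, the replicate block changed the call of pik3cd and of no other named gene. Between HE and ARE, where the numbers were not read as pairs, the block gave 2422 passing genes instead of 2187. Of 696 values of the named genes other than the members, 592 stayed on their side of the threshold, 87 lost a call and 17 gained one. The cause was not tested. Low read numbers limit angpt1 in the morphants and tek in HE.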
